A study of Mus musculus with 6 samples.

Results

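Expression of 45 genes of DNA excision repair, mismatch repair and end joining was examined upon *Paupar* knockdown in N2A cells. The genes were listed by name and cover 5 routes of repair: nucleotide excision repair, mismatch repair, the DNA glycosylases, the core of base excision and single-strand break repair, and end joining. Of the 45 genes, 43 were represented by an array feature annotated to that gene alone, out of 19938 such genes in all. *Tdg* lay only on features annotated to several genes and *Dclre1c* on no feature of its own, so neither is reported. N2A is a mouse neuroblastoma cell line that keeps features of sympathetic neurons. Cells were grown in DMEM with 10% fetal bovine serum and transiently transfected with 1.5 µg of either an shRNA expression vector against *Paupar* (knockdown, 3 arrays) or a non-targeting vector (control, 3 arrays). *Paupar* is a long non-coding RNA of the nervous system that is transcribed from a locus next to *Pax6*. The study's methods give a range of days for RNA extraction, with 2.5 days as its middle, and its legend for *Paupar* levels gives 3 days. The RNA was hybridized to Affymetrix Mouse Gene 1.0 ST arrays. The study describes the 3 arrays of a condition as biological replicates, so p-values measure the spread between these transfections, and the number of arrays limits the precision. The share of cells that took up the vector was not analysed here. In such bulk RNA fewer cells of a kind and less RNA per cell cannot be told apart. No feature was annotated to *Paupar* (0 of 35556), so its own level was not analysed here.

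All values are log2 expression values, and each difference is knockdown minus control on that scale. Arrays were alike, with Pearson correlations between 0.990 and 0.998 over all genes. The median of all genes lay between 7.85 and 7.92 on every array. Of 12 markers of sympathetic neuroblastoma cells 10 were measured, and their summed level was 14.81 to 14.97 in knockdown and 15.01 to 15.08 in control samples. In the limma test described below 2 of 8 tested markers were called lower (25%, compared with 5.16% of all genes tested). They were the catecholamine enzymes *Th* (-0.68, adjusted p = 0.0105) and *Dbh* (-1.09, adjusted p = 0.000687), and the other 6 did not pass. Groups were apart for 4 of the 10 (40%, compared with 23.5% of all genes), 3 lower and 1 higher (*Gata2*, 0.24). Summed levels of 7 glial markers were 9.65 to 9.69 in knockdown and 9.52 to 9.71 in control samples. The corresponding levels were 10.58 to 10.66 in knockdown and 10.46 to 10.69 in control samples for 9 fibroblast and muscle markers. They were 9.70 to 9.90 in knockdown and 9.58 to 9.97 in control samples for 7 blood and endothelial markers. The summed levels of the groups overlapped in all 3 of these lists. A variance filter described below left 6, 3 and 4 of their markers untested, in that order, and none of those tested passed. Single markers with groups apart numbered 2, 1 and 1 (28.6%, 11.1% and 14.3%, compared with 23.5% of all genes).

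Cells remove most damage to single bases by base excision repair, in which a glycosylase takes out the altered base, an endonuclease opens the strand and a polymerase and ligase fill and seal the gap. Nucleotide excision repair cuts out a longer stretch around bulky lesions, and mismatch repair corrects errors left by DNA replication. Breaks across both strands are rejoined directly by end joining, which also serves cells that have stopped dividing, or copied from the sister chromatid by homologous recombination in dividing cells.

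Of the repair genes *Neil3* and *Pms2* were higher upon *Paupar* knockdown, and the others did not pass the test or were removed by a variance filter before it. A gene was called changed at a Benjamini-Hochberg adjusted p under 0.05 in limma, after removal of the 50% of genes with the smallest interquartile range over the arrays. Of the 43 measured genes 20 passed this variance filter, 2 of them were higher in knockdown, 0 were lower and 18 did not pass the test. The other 23 were removed by the filter and not tested. The 2 calls were 10.0% of the 20 tested repair genes, beside 7.54% of all 9969 genes tested (2.39% called higher and 5.16% called lower). The share among the repair genes was thus close to that among all genes. The median difference of the 43 genes was -0.01, with 21 above 0 and 22 below, while the median of all genes was 0.03 and 58.4% of them lay above 0. The order of these medians turned after a further quantile normalization, which gave 0.0399 for the repair genes and 0.0142 for all genes. In a fit to all genes without the filter, the 95% interval of the difference lay within a 1.5-fold change either way for 39 of 43 genes (90.7%, against 90.5% of all genes) and within 2-fold for all 43. These intervals are not adjusted for the number of genes.

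**Figure D1:**
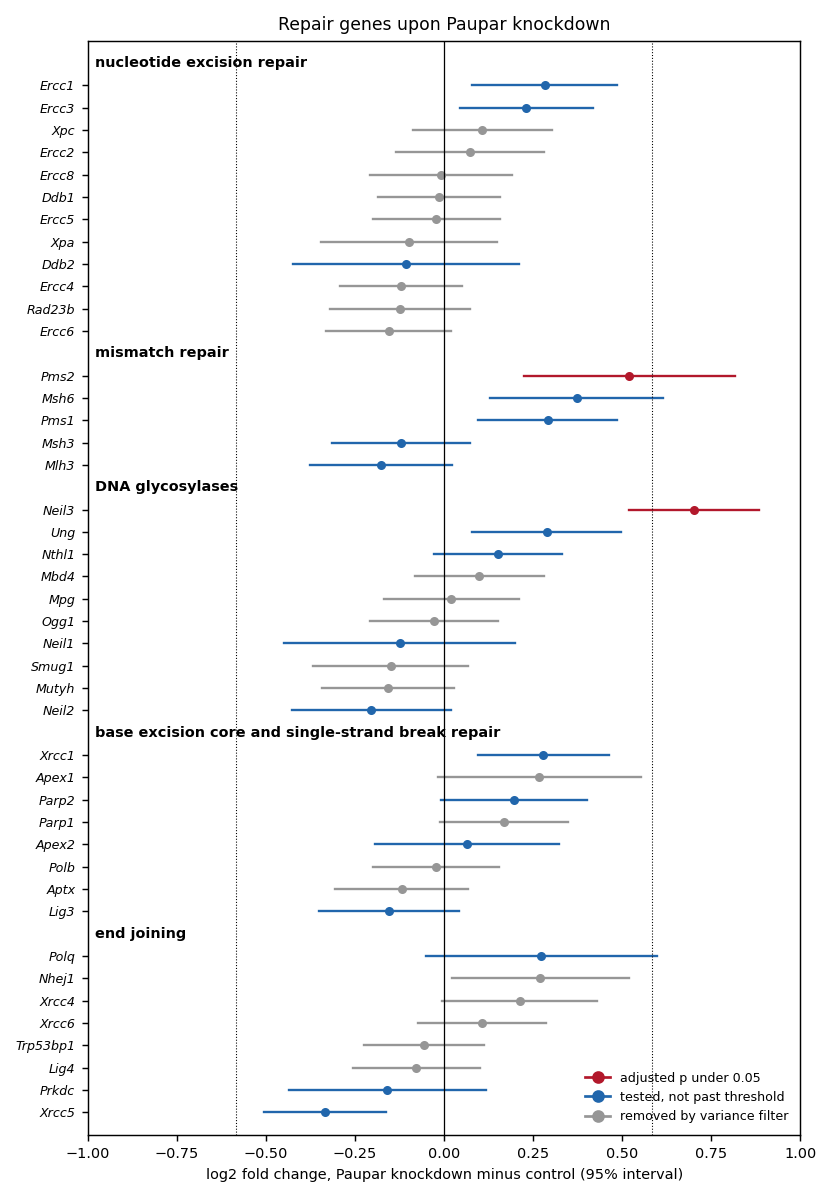
Log2 fold change (knockdown minus control) of the 43 measured repair genes on the horizontal axis, ordered within each route of repair on the vertical axis, with 95% intervals from the limma fit to all genes and dotted lines at a 1.5-fold change. *Neil3* and *Pms2* (red) lie farthest to the right, at 0.70 and 0.52, and *Xrcc5* farthest to the left, at -0.33.

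*Neil3* showed the largest difference of the 43 genes. It encodes a DNA glycosylase that acts on oxidized bases, prefers single-stranded DNA, and unhooks some crosslinks between strands at replication forks. Its level was 10.68, 10.70 and 10.84 in the knockdown samples and 10.02, 10.07 and 10.04 in the control samples. Every knockdown sample was above every control sample, and the gap between the groups was wider than the spread within either. The difference was 0.70 ± 0.12 (SE, n = 3 each), a 1.63-fold rise (limma, adjusted p = 0.00364). Leaving out any 1 of the 6 arrays gave differences between 0.65 and 0.73 and adjusted p-values between 0.00651 and 0.0432. The call was lost when every transcript cluster was kept in the fit, with or without a gene name (adjusted p = 0.114), a setting in which 0 of all genes were called.

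The promoter of *Neil3* is shown because it is the member with the clearest change. The window runs from 250 bases before to 50 bases after the RefSeq transcription start (GRCm38.p6, chr8:53639016-53639315, minus strand), with the GC box word GGGCGG in capitals:
Neil3: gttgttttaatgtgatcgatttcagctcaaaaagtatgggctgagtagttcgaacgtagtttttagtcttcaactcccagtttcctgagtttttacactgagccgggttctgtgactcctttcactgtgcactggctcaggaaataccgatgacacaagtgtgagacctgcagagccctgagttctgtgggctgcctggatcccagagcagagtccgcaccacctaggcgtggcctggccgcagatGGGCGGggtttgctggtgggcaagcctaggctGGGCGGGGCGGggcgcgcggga
The word occurs 3 times, starting at -4, +29 and +34 from the start site, and the last pair share a base. This window holds neither the CCAAT word, nor any of the E2F words described further on, nor the cell cycle homology region word TTTGAA, on either strand.

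None of the other 9 measured glycosylases was called changed, and their differences lay between -0.20 and 0.29. *Ung*, which removes uracil from DNA and in its nuclear form follows replication forks, had 8.74, 8.88 and 8.67 in the knockdown samples and 8.35, 8.56 and 8.52 in the control samples. All 3 knockdown values were above the control values, with a difference of 0.29 ± 0.12 (SE) that did not pass the threshold (adjusted p = 0.150). *Neil2*, a glycosylase for oxidized bases in bubbles and transcribed DNA, gave -0.20 (adjusted p = 0.297), and its paralog *Neil1* gave -0.12 (adjusted p = 0.623). The groups overlapped for both. *Nthl1*, which removes oxidized pyrimidines, gave 0.15 (adjusted p = 0.409) without overlap. The variance filter removed *Ogg1* and *Mutyh*, which act on 8-oxoguanine and on the adenine mispaired with it, the uracil glycosylase *Smug1*, the thymine glycosylase *Mbd4* and the alkyladenine glycosylase *Mpg*. Their differences in the fit to all genes were -0.03, -0.16, -0.15, 0.10 and 0.02 in that order, with unadjusted p-values of at least 0.0879. Among them groups were apart only for *Mutyh*. The median of the 10 measured glycosylases was -0.004, with 5 genes above 0 and 5 below. Mean levels of *Neil2* (6.49), *Nthl1* (7.40), *Mpg* (7.79) and *Mutyh* (7.81) lay below the median level of 7.89 for all genes.

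Of the 5 mismatch repair genes 1 was called higher, and the median difference was 0.29, the highest of the 5 routes. *Pms2*, the subunit of the MutL alpha endonuclease that nicks the new strand, had 10.18, 10.18 and 9.89 in the knockdown samples and 9.29, 9.74 and 9.66 in the control samples. The groups did not overlap, although knockdown replicate 3 and control replicate 2 lay only a little apart. The difference was 0.52 ± 0.14 (SE), a 1.43-fold rise (adjusted p = 0.0415). This call was lost without the variance filter (adjusted p = 0.0693) and when knockdown replicate 1 or 2 was left out (adjusted p = 0.150 and 0.169), or control replicate 1 or 3 (0.103 and 0.112). It was kept when knockdown replicate 3 (0.0252) or control replicate 2 (0.0248) was left out.

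*Msh6*, whose protein recognizes single mismatches and small loops as part of MutS alpha, had 9.09, 9.17 and 9.10 in the knockdown samples and 8.55, 8.96 and 8.72 in the control samples. These groups were also apart, with a difference of 0.37 ± 0.13 (SE) that did not pass the threshold (adjusted p = 0.0911) and passed it only on leaving out control replicate 2 among the single arrays (0.0395). *Pms1*, a further MutL subunit, gave 0.29 (adjusted p = 0.139), again without overlap. The remaining pair had negative differences. *Msh3*, which takes the place of MSH6 in the complex that recognizes larger loops, gave -0.12 (adjusted p = 0.532), with overlapping groups. *Mlh3*, a MutL endonuclease subunit best known from meiotic crossovers, gave -0.18 (adjusted p = 0.346) without overlap. Control replicate 1 was the lowest of the 6 arrays for 3 of these 5 genes, and for 16 of the 43 repair genes (37.2%), compared with 19.2% of all genes. Without that array the differences were 0.38 for *Pms2* and 0.27 for *Msh6*.

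**Figure D2:**
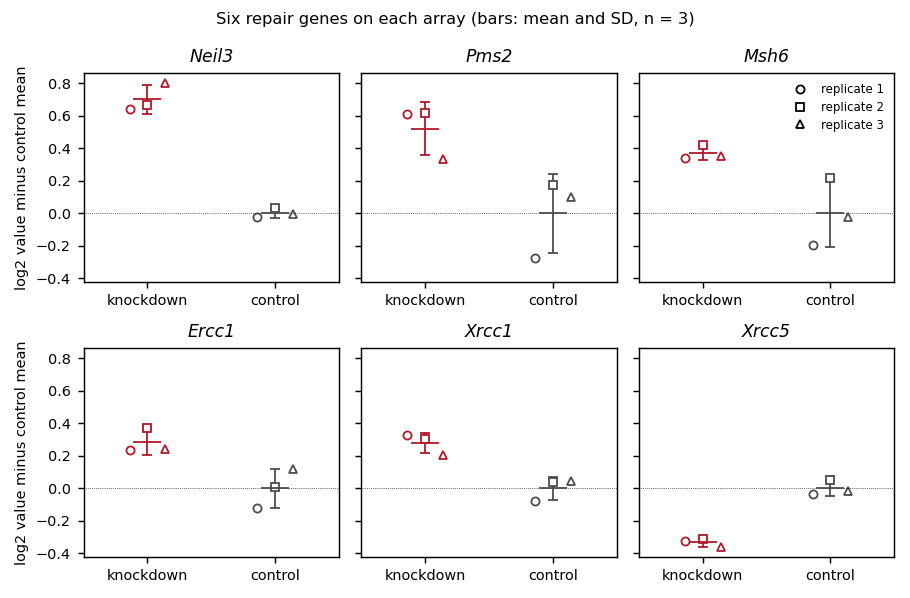
Log2 value minus the control mean (vertical axis) of 6 repair genes on each knockdown array (left, red) and control array (right, grey), with bars for the mean and SD of 3 arrays and one symbol per replicate number. Knockdown values lie above all control values for *Neil3*, *Pms2*, *Msh6*, *Ercc1* and *Xrcc1* and below them for *Xrcc5*, and control replicate 1 is the lowest control in each plot.

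The *Pms2* window of the same length is shown for comparison with that of *Neil3* (GRCm38.p6, chr5:143909751-143910050, plus strand), with CCAAT and GC box words of either strand in capitals:
Pms2: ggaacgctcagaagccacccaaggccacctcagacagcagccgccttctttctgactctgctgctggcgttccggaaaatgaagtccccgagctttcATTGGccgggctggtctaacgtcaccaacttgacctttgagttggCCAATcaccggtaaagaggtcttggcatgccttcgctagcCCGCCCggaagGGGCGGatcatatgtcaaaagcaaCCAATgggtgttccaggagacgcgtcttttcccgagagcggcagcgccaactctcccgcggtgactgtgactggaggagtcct
It holds CCAAT at -153 (as ATTGG), -108 and -33, and the GC box word at -68 (as CCGCCC) and -57. No E2F or cell cycle homology region word is present, so both promoters of called genes share only the GC box word among those searched.

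A RefSeq window was at hand for 38 of the 45 genes (42 windows). E2F factors switch on many genes of DNA synthesis, and 4 words of their known site were searched on both strands, TTTGGCGC, TTTCGCGC, TTTCCCGC and TTTGCCGC. They occurred in 4 of the 42 windows (9.52%) and in 2.26% of 32851 windows of all genes. In 4 further lists described below the shares were 31.8% for shared resynthesis factors, 21.4% for homologous recombination, 9.09% for other end-joining factors and 0% for other excision repair factors. By route the 4 repair windows belonged to 2 mismatch repair genes, 1 glycosylase and 1 end-joining gene. For these genes 30 bases around the words are given, with the E2F words in capitals (GRCm38.p6, chr13:92355185-92355214 minus strand for *Msh3*, chr17:87975054-87975083 plus strand for *Msh6*, chr17:24632539-24632568 plus strand for *Nthl1* and chr15:82016312-82016341 plus strand for *Xrcc6*):
Msh3: gccgtcaagTTTGGCGCGAAAtcgcagccc
Msh6: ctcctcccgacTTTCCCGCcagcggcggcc
Nthl1: ccgcgcgcgccTTTCGCGCgcaggtcctcc
Xrcc6: agggggtggaaGCGGGAAAtgcgagtgggc
In *Msh3* a pair of words on opposite strands overlap, and in *Xrcc6* the word reads on the opposite strand. The differences of these genes were -0.12, 0.37, 0.15 and 0.11 in the same order. None was called changed, and *Xrcc6* was removed by the variance filter. The GC box word was found in 69.0% of the repair windows and 35.7% of all windows, the CCAAT word in 59.5% and 37.4%, and TTTGAA in 4.76% and 17.9%. Over the 4 further lists these shares ran from 63.6% to 72.7%, from 35.3% to 50% and from 9.09% to 21.4% in the same order. All windows thus differ from the repair windows in how often the GC box word occurs, and no background of like base composition was used. These matches describe the windows, and no binding was measured.

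None of the 12 nucleotide excision repair genes was called changed, 9 of them were removed by the variance filter, and the median difference of the 12 was -0.02. *Ercc1*, the partner of the XPF nuclease that cuts on the 5′ side of the lesion, had 9.17, 9.30 and 9.17 in the knockdown samples and 8.81, 8.94 and 9.05 in the control samples. Its difference was 0.28 ± 0.12 (SE, adjusted p = 0.153), with no overlap. *Ercc3*, the XPB translocase of the general transcription factor TFIIH, had 11.16, 11.12 and 11.06 in the knockdown samples and 10.87, 10.81 and 10.98 in the control samples. This gave 0.23 ± 0.12 (SE, adjusted p = 0.215), also with no overlap. The remaining 10 genes had differences between -0.16 and 0.11. They included the damage sensors *Xpc* (0.11), *Ddb1* (-0.01) and *Ddb2* (-0.11), the XPC partner *Rad23b* (-0.12), the TFIIH helicase *Ercc2* (0.07) and the scaffold *Xpa* (-0.10). The nucleases *Ercc4* and *Ercc5* gave -0.12 (groups apart) and -0.02 (overlapping). Of the genes that couple repair to transcription, *Ercc6* gave -0.16 with every knockdown value below the control values, and *Ercc8* gave -0.01. *Ddb2* was the only one of these 10 to pass the variance filter (adjusted p = 0.668). Its mean level of 7.31 lay below the median level of 7.89 for all genes.

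In the core of base excision and single-strand break repair 8 genes were measured and 4 of them passed the variance filter. None passed the test, and the median difference of the 8 was 0.12. *Xrcc1*, the scaffold that gathers ligase and polymerase at single-strand breaks, had 9.72, 9.70 and 9.60 in the knockdown samples and 9.31, 9.43 and 9.44 in the control samples. The groups were apart, with a difference of 0.28 ± 0.12 (SE, adjusted p = 0.146). *Apex1*, the main endonuclease at abasic sites, had 10.97, 10.74 and 10.73 in the knockdown samples and 10.27, 10.73 and 10.63 in the control samples. Control replicate 1 had by far the lowest value, and the groups overlapped. The difference was 0.27, and the gene was removed by the variance filter (adjusted p = 0.302 in the fit to all genes). The break sensors *Parp1* and *Parp2* gave 0.17 (groups apart) and 0.20 (overlapping). The second abasic endonuclease *Apex2* gave 0.06, the gap-filling polymerase *Polb* gave -0.02, the end-cleaning enzyme *Aptx* gave -0.12, and the ligase *Lig3* gave -0.15. *Parp1*, *Polb* and *Aptx* were also removed by the filter. The mean level of *Aptx*, 7.71, lay below the median level of 7.89 for all genes.

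Of the 8 end-joining genes measured 3 passed the variance filter and none passed the test, and the median difference was 0.03. *Xrcc5*, which encodes the KU80 subunit of the KU ring that binds broken ends, had the largest negative difference of the 43 genes. It had 9.85, 9.86 and 9.81 in the knockdown samples and 10.14, 10.23 and 10.16 in the control samples. The groups were apart by more than the range within either, and the difference was -0.33 ± 0.11 (SE, adjusted p = 0.0843). It passed the threshold when genes of low level were removed in place of those of low variance (adjusted p = 0.0249) and when arrays were weighted by their spread (0.00376), and not on leaving out any single array (0.0787 to 0.246). *Polq*, the polymerase of end joining at short homologies, had 9.16, 8.91 and 8.74 in the knockdown samples and 8.40, 8.90 and 8.70 in the control samples. Its difference of 0.27 ± 0.15 (SE, adjusted p = 0.254) came with overlapping groups, and knockdown replicate 1 and control replicate 1 were its highest and lowest arrays.

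The KU70 gene *Xrcc6* gave 0.11 and the ligation factors *Xrcc4*, *Lig4* and *Nhej1* gave 0.21, -0.08 and 0.27. *Prkdc*, the kinase that KU recruits, gave -0.16 (adjusted p = 0.471). *Trp53bp1*, which shields broken ends from resection, gave -0.06. Groups were apart for *Xrcc6*, *Xrcc4*, *Nhej1* and *Trp53bp1*, the last with a level only 1.04-fold lower. These genes and *Lig4* were removed by the variance filter and not tested.

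Groups that do not overlap were more frequent among the repair genes than the calls. Of the 43 genes 19 had groups apart (44.2%), compared with 23.5% of all genes. The median level of the repair genes was also higher, at 9.41 compared with 7.89 for all genes. No share was computed for genes of like level, so these shares were not tested as a trait of the repair genes. In 13 of them the knockdown values were higher (all genes, 12.8%) and in 6 they were lower (all genes, 10.8%). By route they were 4 of 12 in nucleotide excision repair, 4 of 5 in mismatch repair, 4 of 10 among the glycosylases, 2 of 8 in the base excision core and 5 of 8 in end joining. Without the variance filter 1 of the 43 genes was called, *Neil3*, where 3.07% of all 19938 genes were called. An unadjusted p under 0.05 was found for 10 of the 43 in that fit (23.3%), near the 18.4% of all genes.

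**Figure D3:**
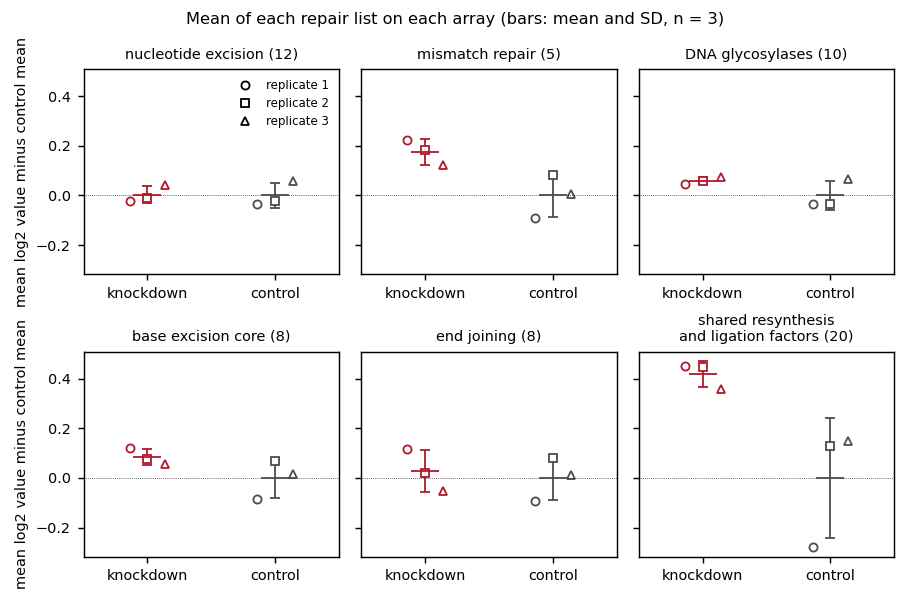
Mean log2 value minus the control mean (vertical axis) over the measured genes of each list, with the number of genes in brackets, on each knockdown array (left, red) and control array (right, grey), with bars for the mean and SD of 3 arrays. Mismatch repair stands highest of the 5 repair routes in knockdown (0.12 to 0.22), and the shared resynthesis and ligation factors stand higher still (0.36 to 0.45), with control replicate 1 at -0.28.

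Several repair proteins work as fixed complexes, and 6 pairs of partners in the list were compared. These pairs were chosen after the values had been seen and were not tested. The order of the genes in each pair was set then too, so the direction of a ratio follows from that order. Other partners in the list were left out, such as *Xrcc4* with *Nhej1* (differences of 0.21 and 0.27) and the TFIIH subunits *Ercc2* and *Ercc3* (0.07 and 0.23). The excess of *Xrcc6* over *Xrcc5*, the subunits of KU, was 0.40, 0.47 and 0.45 in the knockdown samples and 0.08, -0.13 and 0.04 in the control samples, relative to the control mean. The ratio of these transcripts was thus 1.36-fold higher in knockdown. For *Xrcc1* over *Lig3* the relative excess was 0.35, 0.54 and 0.40 in the knockdown samples and -0.01, -0.01 and 0.03 in the control samples, a ratio 1.35-fold higher. That of *Ercc1* over *Ercc4* was 0.37, 0.49 and 0.35 in the knockdown samples and -0.07, -0.02 and 0.09 in the control samples, or 1.32-fold higher. In each of these 3 pairs the first gene had a positive and the second a negative difference, and the ratio separated the groups. *Xrcc4* over *Lig4* and *Xpc* over *Rad23b* gave ratios 1.22-fold and 1.17-fold higher, with groups apart. *Ddb2* over *Ddb1* overlapped, with a difference of -0.09. Groups apart were seen for 23.5% of single genes, and no such share was computed for pairs of genes.

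**Figure D4:**
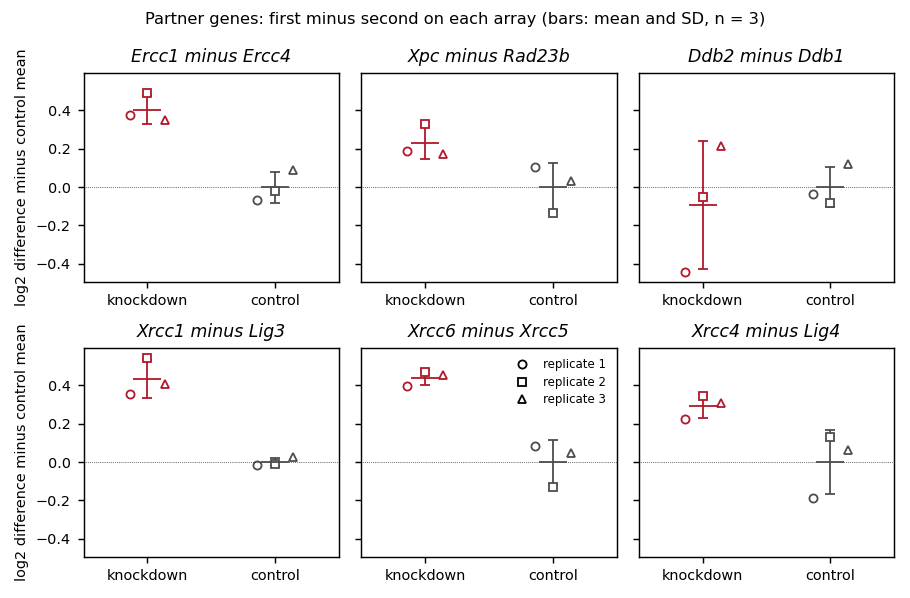
Log2 difference between the first and second gene of 6 partner pairs, relative to its control mean (vertical axis), on each knockdown array (left, red) and control array (right, grey), with bars for the mean and SD of 3 arrays. The groups are apart for 5 pairs, most widely for *Xrcc1* minus *Lig3* and *Xrcc6* minus *Xrcc5*, and overlap for *Ddb2* minus *Ddb1*.

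Other genes of the same pathways were read from 4 further lists. Of all genes tested 2.39% were called higher, and 23.5% of all genes had groups apart. Of 15 measured further factors of excision repair, among them TFIIH subunits, 0 were called, 5 had groups apart (33.3%) and the median difference was 0.10. Of 9 further end-joining factors 1 was higher, *Mdc1*, an adaptor at broken ends (0.51, adjusted p = 0.0313), 4 had groups apart (44.4%) and the median was 0.05. The *Mdc1* call was lost when knockdown replicate 1 or 2 or control replicate 1 or 3 was left out, and with every cluster kept. Among 20 factors of gap resynthesis, flap removal and ligation that excision and mismatch repair share with replication, 6 were called higher (31.6% of the 19 tested) and 0 lower, with a median of 0.45 and 15 with groups apart (75%). The mismatch and end-resection exonuclease *Exo1* (0.79, adjusted p = 0.0336), the single-strand binding subunit *Rpa2* (0.74, adjusted p = 0.0135), the flap endonuclease *Fen1* (0.69, adjusted p = 0.0218) and the polymerase delta subunit *Pold2* (0.48, adjusted p = 0.0304) had the largest differences among the 6. Of 15 homologous recombination genes 3 were higher (30% of the 10 tested) and 0 lower, with a median of 0.32 and 9 with groups apart (60%). They included the DNA translocases *Rad54l* (0.63, adjusted p = 0.0431) and *Rad54b* (0.56, adjusted p = 0.0138).

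Control replicate 1 was the lowest of the 6 arrays for 16 of the 20 shared factors and 12 of the 15 recombination genes. Without it 0 and 1 of them were called, and their medians were 0.32 and 0.27. The counts were 0 and 1 without knockdown replicate 1, 0 and 0 without knockdown replicate 2 or control replicate 3, 8 and 5 without knockdown replicate 3, and 8 and 6 without control replicate 2. Calls over all genes moved the same way in these settings. They were 752 with every array, and 242, 786 and 112 without control replicate 1, 2 and 3. Without knockdown replicate 1, 2 and 3 they were 201, 138 and 1239. Whether the shared factors or recombination genes differed from the repair genes was not tested.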

How the data were processed

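RNA of 3 knockdown and 3 control samples of N2A cells was measured with Affymetrix Mouse Gene 1.0 ST arrays. As the methods describe, the authors corrected background, quantile normalized and summarized probes by RMA, and the deposited log2 value of each of 35556 transcript clusters was used as given. No version of these tools is given in the sources used here. The platform annotation gave 1 symbol to 21789 clusters, several to 1621 and none to 12146; only the first were named. Where a gene had several clusters, that of the highest mean level represented it, leaving 19938 genes, of which 19856 matched the RefSeq gene table. Each of the 43 repair genes had 1 such cluster. This choice, made on all arrays, does not depend on group.

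Groups were taken from the sample labels. Knockdown was compared with control in limma 3.58.1 (R 4.3.3) with lmFit and eBayes, two-sided. The 50% of genes with the smallest interquartile range were removed first, with Benjamini-Hochberg adjustment over the 9969 left. The study's methods give a variance cut off of 0.5 without naming the measure, so the interquartile range was chosen here. Genes removed by the filter were read from the same fit to all genes, which also gave the 95% intervals. Scripts were tested on simulated data.

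Per-array values are given for genes past the threshold and for the 2 genes of each route with the largest absolute difference, and other genes are given by their difference. Up to 4 called genes were named from each further list, except 1 recombination gene that is not reported here. Members and lists were chosen with earlier results of these data known, so lists are described by counts and medians and not tested. Promoter windows and names are from RefSeq (GRCm38.p6). The 17 alternatives tried were other filters, row choices, normalizations, array weights, an intensity trend, a replicate block and leaving out each array.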

Additional observations from a re-analysis of the deposited data

How the results depend on the processing

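Over 17 alternatives neither called gene changed direction, and 33 of the 43 repair genes kept 1 sign throughout. *Neil3* passed the test in 16 of 17, all except the fit that kept every transcript cluster (adjusted p = 0.114), and *Pms2* in 11. Without the variance filter 1 repair gene was called, higher in knockdown, and 0 in mismatch repair. With every transcript cluster kept, 0 repair genes were called, 0 in mismatch repair and 0 among the glycosylases, and limma called 0 of all 17778 clusters tested (3015 at an unadjusted p under 0.05). With genes of low level removed in place of those of low variance, 1 repair gene was lower, in end joining (*Xrcc5*), while 1041 of all genes were called, 640 of them lower, compared with 752 and 514. After a further quantile normalization the median difference of the repair genes was 0.0399, compared with -0.01, and that of all genes 0.0142, compared with 0.03.

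Weighting the arrays by their spread gave control replicate 1 a weight of 0.289, knockdown replicate 3 one of 0.312 and control replicate 3 one of 4.44. It then called 12 repair genes, 9 higher and 3 lower: 2 in nucleotide excision repair, 3 in mismatch repair, 3 among the glycosylases, 2 in the base excision core and 2 in end joining. Medians were -0.0804 for nucleotide excision repair and -0.0542 for the glycosylases. The same setting called 5561 of all genes (2896 higher, 2665 lower), compared with 752 (238 higher, 514 lower). The cause was not tested. Of the shared resynthesis factors and the recombination genes, it called 16 and 10, compared with 6 and 3. These counts were 14 and 7 with a filter on sample variance, 14 and 6 with an intensity trend, 4 and 2 without a filter, and 0 and 0 with every cluster kept.

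Leaving out 1 array at a time called 1 to 3 repair genes, 1 to 3 of them higher, and 0 to 2 in mismatch repair, and the median of the repair genes ranged between -0.0107 and 0.0440. Counts over all genes were 201, 138 and 1239 without knockdown replicate 1, 2 and 3, and 242, 786 and 112 without control replicate 1, 2 and 3. With the replicate number as a block, 2 repair genes were called and 680 of all genes. Deviations of same-numbered samples from their group means correlated at -0.34, 0.10 and 0.08. Such deviations sum to 0 within a group, which ties the correlations together. Whether samples were handled in numbered pairs could therefore not be told. With 3 arrays per group, the median half-width of the unadjusted 95% intervals of the repair genes in the fit to all genes was 0.20. Differences well under that could not be told from 0. A call after adjustment took more, since differences of 0.37 (*Msh6*) and -0.33 (*Xrcc5*) did not pass the threshold in the main fit.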
